A study of Homo sapiens with 414 samples.

Results

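ARRDC3 was read at widely different levels in single H9 cells, and the data were used here to ask how cells at both ends of that range differ in growth signalling, cell cycle and stress genes. H9 and H1 are human embryonic stem cell lines, kept undifferentiated in E8 medium on Matrigel in this study. Each cell was caught on a microfluidic chip, its RNA was turned into cDNA along its full length, and that cDNA was sequenced both at 24 and at 96 libraries per lane with reads of 51 bp. The 91 H9 cells came from passages 25 to 35 and the 92 H1 cells from passages 20 to 30, and 48 bulk H1 libraries came from passage 16, within 414 libraries in all. All groups compared below are untreated and share medium and matrix. The H9 cells at 24 libraries per lane were ranked by ARRDC3 in counts per 1000000 human counts (CPM), and the 23 highest and the 23 lowest cells were set against each other. The cells were thus chosen by their ARRDC3 level. They are 46 of the 91 cells, and 45 lie between.

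The sample labels carry a single code per line, do not say whether it stands for a chip, and name no separate culture. A group of cells is therefore 1 sample, no test between the groups is possible, and no p-value is given. The measured level of ARRDC3 itself chose the groups, so all differences below are descriptions. Libraries of the same cells at 96 per lane repeat the sequencing and not the cells.

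ARRDC3 is an alpha-arrestin, an adaptor that brings ubiquitin ligases of the NEDD4 family to receptors at the cell membrane and so helps to remove them. Its family also holds TXNIP, which limits glucose uptake and binds thioredoxin. Transcription of ARRDC3 has been linked to FOXO factors, which enter the nucleus when insulin, PI3K and AKT signalling is low, and E8 medium supplies insulin and FGF2 at all times. Stem cells in this medium divide rapidly, with a short G1 phase.

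The promoters of ARRDC3, of the FOXO-linked gene HBP1 and of TXNIP are shown because each holds the core FOXO motif TGTTTAC, which reads as GTAAACA on the other strand and is in capitals. They are the RefSeq windows of GRCh38.p14 from 250 bases before to 50 bases after an annotated start: chr5:91380048-91380347 on the minus strand, chr7:107168753-107169052 on the plus strand and chr1:145996530-145996829 on the minus strand.
ARRDC3: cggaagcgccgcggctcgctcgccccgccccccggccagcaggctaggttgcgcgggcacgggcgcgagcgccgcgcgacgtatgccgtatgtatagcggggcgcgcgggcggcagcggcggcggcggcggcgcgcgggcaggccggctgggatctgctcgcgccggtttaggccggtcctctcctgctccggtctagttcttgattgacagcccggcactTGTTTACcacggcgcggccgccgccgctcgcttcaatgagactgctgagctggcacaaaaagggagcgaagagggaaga
HBP1: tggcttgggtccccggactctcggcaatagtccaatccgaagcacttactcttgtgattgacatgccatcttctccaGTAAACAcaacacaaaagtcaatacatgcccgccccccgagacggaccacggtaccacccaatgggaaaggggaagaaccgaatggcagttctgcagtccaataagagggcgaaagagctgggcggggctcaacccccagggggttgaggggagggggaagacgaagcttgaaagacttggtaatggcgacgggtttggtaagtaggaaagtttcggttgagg
TXNIP: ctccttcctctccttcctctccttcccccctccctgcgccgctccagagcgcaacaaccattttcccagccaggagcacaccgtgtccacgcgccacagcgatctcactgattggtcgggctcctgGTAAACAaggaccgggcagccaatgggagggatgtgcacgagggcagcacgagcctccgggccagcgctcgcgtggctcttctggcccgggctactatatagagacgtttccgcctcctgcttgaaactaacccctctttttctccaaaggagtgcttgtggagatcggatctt
The motif began at position -29 from the start in ARRDC3, at -173 in HBP1 and at -124 in TXNIP. The windows at the other annotated starts of ARRDC3, HBP1 and TXNIP did not hold these letters. On either strand the motif was found in at least 1 window of 4.19% of 27305 genes and of 7 of the 28 FOXO-linked genes with a window. Of the genes named below for separating the groups, 0 of 10 higher and 0 of 9 lower genes with a matched window held it. A match of letters is no evidence of binding.

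ARRDC3 ranged from 0 to 1969 CPM over the 91 H9 cells, with a median of 100.5 CPM. The 23 high cells lay between 185 and 1969 CPM with a median of 267.4, and the 23 low cells between 0 and 22.95 CPM with a median of 1.65. Low levels were common, with 15 of the 91 cells below 5 CPM and 46 above 100 CPM. The low end had no gap at its border, since the highest low cell had 22.95 CPM and the next cell 23.04 CPM. At the upper border the lowest high cell had 185 CPM and the next cell below it 164 CPM.

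Reads were ample in both groups. Cells had a median of 3863508 human counts, the median cell had 343 ARRDC3 counts, and no low cell had more than 83 while no high cell had fewer than 451. Read again at 96 libraries per lane, ARRDC3 kept its order, with a Spearman correlation of 0.990 over the 91 cells. Of the 23 high cells 21 were among the 23 highest at 96 per lane, 20 of the 23 low cells were among the lowest, and 0 crossed to the other end. A long noncoding gene, ARRDC3-AS1, starts on the opposite strand between the starts of ARRDC3, and the sources used here do not state whether counting used strand, so reads of that gene cannot be told apart from those of ARRDC3.

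**Figure D1:**
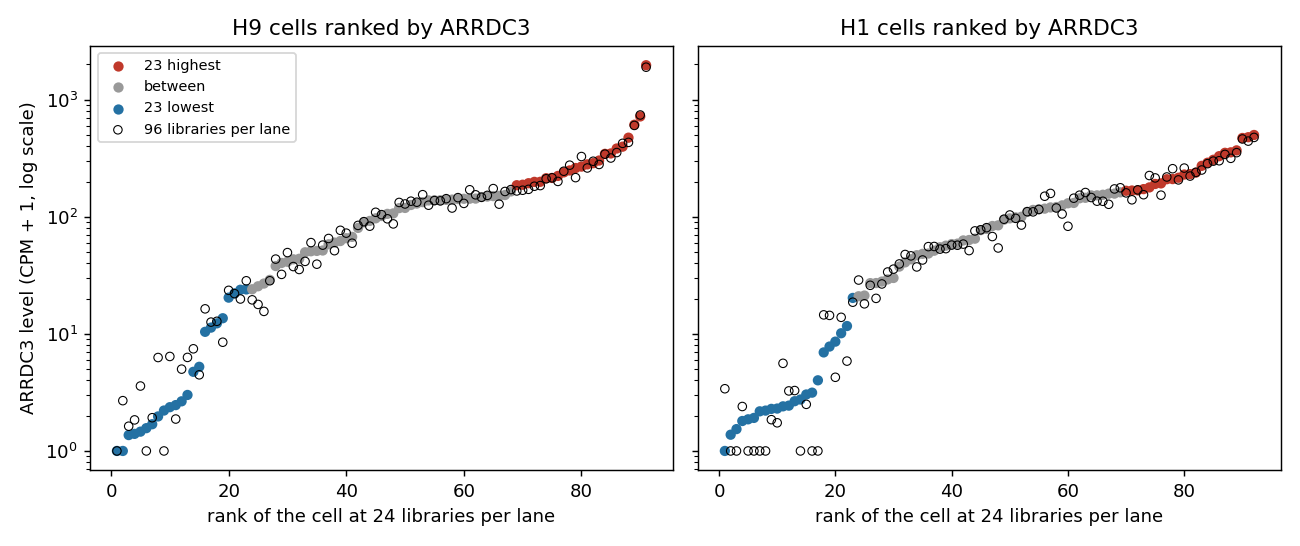
ARRDC3 level (CPM + 1, log axis) in each H9 cell (left) and H1 cell (right), ordered by rank at 24 libraries per lane, with the same cell at 96 libraries per lane as an open circle. In H9 the 23 highest cells (red) start at 185 CPM and the 23 lowest (blue) end at 22.95 CPM, and the open circles follow the filled ones.

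ARRDC3 varied more between H9 cells than genes of like abundance. Its coefficient of variation was 1.63, against a median of 0.616 over the genes nearest in mean level, and only 1 of 8481 genes had a larger excess on this measure. One cell, number 53, carried much of this, with 1969 CPM from 12013 counts, where the next highest cell had 718 CPM. Without that cell the coefficient was 1.08 and 105 of 8464 genes had a larger excess. ARRDC3 was picked for this split with these data known, so its rank describes and does not test.

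H1 cells had a similar spread of ARRDC3. The 23 high H1 cells lay between 166 and 499 CPM (median 230) and the 23 low ones between 0 and 19.3 CPM (median 1.44). In H1 3.47% of genes had a larger excess of variation than ARRDC3. With mitochondrially encoded genes left out of all totals, bulk H1 libraries held 31.2 ± 4.67 CPM of ARRDC3 (SD, n = 48), with a lowest value of 24.2 and a highest of 48.5, while the H1 cells averaged 118 ± 123 CPM (SD, n = 92). HBP1 had the same direction, at 29.1 CPM in bulk and 103 CPM in the H1 cells. TXNIP had the opposite one, at 4.56 CPM in bulk and 1.90 CPM in the cells. Bulk libraries were made by another chemistry and read at 48 libraries per lane, not 24. They came from passage 16 and the H1 cells from passages 20 to 30. These differences cannot be told apart from the change from bulk to single cells.

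Cell quality and RNA content were similar in both groups. High and low H9 cells had medians of 4194326 and 3662792 human counts, 10725 and 10639 genes with a count, and 10131 and 10221 genes after thinning to an equal total. Spike-in RNA took 4.77% and 4.75% of counts and mitochondrially encoded genes 7.17% and 6.97%. Human counts per spike-in count, a measure of RNA per cell, had medians of 20.0 in both. Over the 91 cells the Spearman correlation of ARRDC3 with human counts was 0.12 and with human counts per spike-in count 0.03.

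Some cells stood apart. The 2 H9 cells with unusual shares, cell 28 with 0.539% mitochondrial counts and cell 30 with 12.1% spike-in counts, were both in the low group. Another 7 H9 cells resembled another cell beyond the rest (correlation of centred levels above 0.1, up to 0.64), of which 1 was high and 2 were low. In H1, 4 of 5 cells of unusual share and 2 of 3 look-alike cells were in the low group.

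The ARRDC3-high and ARRDC3-low H9 cells were alike across most genes. Of 8939 genes with a mean of at least 10 CPM in either group, 458 (5.12%) were at least 2-fold higher in the high cells and 395 (4.42%) at least 2-fold lower, which is 9.54% in either direction. The median log2 ratio of all genes was -0.01, and 75.9% of genes lay within 1.5-fold. No gene separated the groups: ranges over cells overlapped for all 8939 genes. As a measure of overlap, every high cell was paired with every low cell and the cell with the higher level was noted. The share of pairs won by the high cell had its 1st percentile over genes at 29.9% and its 99th at 69.9%, and was above 75% for 19 genes and below 25% for 9.

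The share of 2-fold differences rose as genes were read in fewer cells. Among genes with a count in all 46 cells, 1.78% of 4892 were at least 2-fold apart. Among genes with a count in 24 to 40 cells 25.3% of 1714 were, and among those in 23 cells or fewer 64.9% of 239. The latter held 87 of the 458 higher and 68 of the 395 lower genes. The same gradient was present in the H1 split, from 1.78% of 5390 genes to 68.9% of 103. A gene read in few cells is measured only if a group's mean reaches 10 CPM. That filter itself favours 2-fold differences among such genes.

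**Figure D2:**
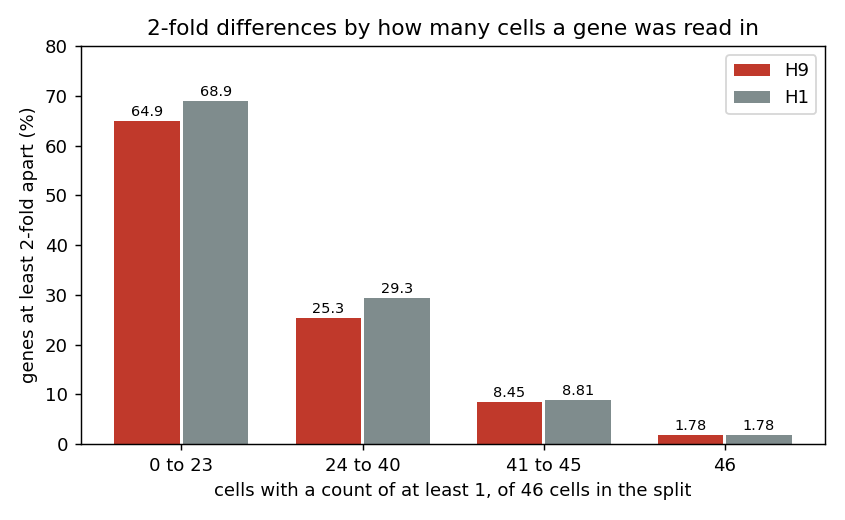
Percent of genes at least 2-fold apart between ARRDC3-high and ARRDC3-low cells, by the number of the 46 cells with a count of at least 1, in H9 and in H1. Bars stand for the share of genes in each class and fall from 64.9% to 1.78% in H9 and from 68.9% to 1.78% in H1.

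Resequencing left these ratios nearly as they were. In the same cells at 96 per lane 880 genes (9.84%) were at least 2-fold apart, 752 of the 853 genes named by the 2-fold limit at 24 per lane passed it again in the same direction, and 0 had the opposite sign. This bears on sequencing and not on which cells were drawn.

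Among the relatives of ARRDC3 only ARRDC1, which helps bud vesicles from the membrane, reached 10 CPM, with a mean of 10.5 CPM in high and 4.17 CPM in low cells. Its log2 ratio of 1.33 was past 2-fold, and was 0.81 without the highest cell of each group. It was admitted through the high group alone, which favours this direction. ARRDC1 was read in 15 high and 11 low cells, and its highest high cell, at 142 CPM, stood far from the second, at 30.96 CPM. ARRDC2 and ARRDC5 stayed below 1 CPM in both groups.

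TXNIP and ARRDC4, the relatives most often placed under the glucose sensor MLXIP, were low in both groups and read mostly in high cells. TXNIP had a count in 7 of 23 high cells (30.4%, exact binomial 95% interval 13.2% to 52.9%) and in 3 of 23 low cells (13.04%, 2.78% to 33.6%). Its highest level was 39.3 CPM among high cells and 0.230 CPM among low cells. Summed over cells TXNIP had 515 counts against 3, or 5.38 CPM in high and 0.0326 CPM in low cells. The ratio of these CPM values was 165, with an exact interval of 56.2 to 803. That interval covers counting error at most, with no allowance for reads copied from the same molecule. The top 3 high cells gave 400 of the 515 counts. ARRDC4 had a count in 6 high and 1 low cells. In H1, TXNIP was read in 5 high and 3 low cells, with 457 and 159 counts, and ARRDC4 in 11 high and 13 low cells.

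The ligases and sorting proteins that alpha-arrestins recruit had 0 of 10 measured members 2-fold apart in either direction, with a median log2 ratio of 0.12. Beside this and each list count below stands the share over all measured genes, 9.54% in either direction. PDCD6IP (ALIX), an ESCRT partner, was highest in the list at 0.80. It had a median of 118 CPM in high and 62.5 CPM in low cells, and the ranges of 1.29 to 511 and 9.46 to 225 CPM overlapped. The ligase NEDD4 was the lowest at -0.85, with a direction that was not fixed over the alternative settings (-2.01 to 0.20), and was read in 13 high and 17 low cells.

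FOXO-linked genes had no common direction. Of 16 measured members 1 was at least 2-fold higher and 2 at least 2-fold lower in high cells. Over all measured genes these shares were 5.12% and 4.42%. The list median log2 ratio of 0.09 lay between -0.11 and 0.09 over the alternative settings and so had no fixed sign. HBP1, a transcription factor that restrains the G1 to S step, was the one higher. In high cells HBP1 ranged from 1.49 to 952 CPM with a median of 70.3, and in low cells from 0.231 to 159 CPM with a median of 38.8. Its log2 ratio was 1.48 in H9 and 0.41 in H1. The high cell with 952 CPM stood above the second highest high cell at 419 CPM, and without the highest cell of each group the ratio was 1.16.

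IRS2 and ERBB3, a pair of receptor-pathway genes that FOXO factors are known to induce, were lower where ARRDC3 was high. IRS2, the adaptor below the insulin and IGF receptors, had a median of 6.58 CPM in high cells (0 to 98.7) and of 28.7 CPM in low cells (0 to 160), a log2 ratio of -1.42. ERBB3, a receptor of neuregulins, had medians of 18.8 and 25.8 CPM and a log2 ratio of -1.23 (-0.95 without the cells of unusual share). Both ranges overlapped, and in H1 IRS2 stood at 0.52 (-0.01 to 1.35 over the alternative settings).

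Receptors of insulin, IGF and FGF and the genes of PI3K, AKT and mTOR had a median log2 ratio of -0.22 over 26 measured members. The median was below 0 under each of the 13 alternative settings (-0.38 to -0.14). That was not particular to this list. The medians of hypoxia genes (-0.34 to -0.12) and ribosomal protein genes (-0.19 to -0.02), among others, also stayed below 0. Of these 26 members 1 was at least 2-fold higher and 1, IRS2, at least 2-fold lower.

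FGFR1, the main receptor for the FGF2 of the medium, was lower in the high cells in most pairs. FGFR1 had a count in all 46 cells, from 32.1 to 427 CPM in high cells (median 112) and from 73.3 to 507 CPM in low cells (median 234). The high cell was above the low cell in 24.6% of pairs, and the log2 ratio was -0.74. TSC1, which restrains mTORC1, and RICTOR, a subunit of mTORC2, were lower as well, at -0.72 and -0.70. The list had no single direction, with 16 members below 0 and 10 above, the highest at 2.12. Among those above 0 were PIK3CB at 0.62 and TSC2 at 0.57. In H1 the log2 ratio of FGFR1 was 0.33.

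Most lists of genes downstream of these signals had medians near 0. FGF and ERK feedback genes had 1 of 15 members 2-fold apart, SPRED2 at -1.15, which was read in 15 high and 14 low cells, and ETV5, an ERK-responsive factor, stood at 0.73. Immediate-early genes had 0 of 9 members 2-fold apart and a median of -0.38, between -0.38 and 0.08 over the alternative settings. MYC had a log2 ratio of 0.44, the 24 ribosome biogenesis genes a median of 0.12 with 0 members 2-fold apart, and the 38 ribosomal protein genes a median of -0.12. The 13 mTORC1 and nutrient uptake genes had a median of 0.03, and cholesterol synthesis genes one of 0.11.

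LDHA, the enzyme that turns pyruvate into lactate, had the highest log2 ratio of the glycolytic genes, at 0.56. In high cells LDHA ranged from 435 to 1884 CPM with a median of 1328, and in low cells from 393 to 1461 CPM with a median of 825. High cells were above low cells in 78.8% of pairs, although the means differed only 1.47-fold. The 19 glycolytic genes had a median of -0.03, with 6 above 0 and 13 below. PFKP and PGK1 stood at 0.41 and 0.35. HK1, which starts glycolysis, was more displaced than LDHA, at -0.76. In H1 the LDHA groups had medians of 839 and 850 CPM.

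**Figure D3:**
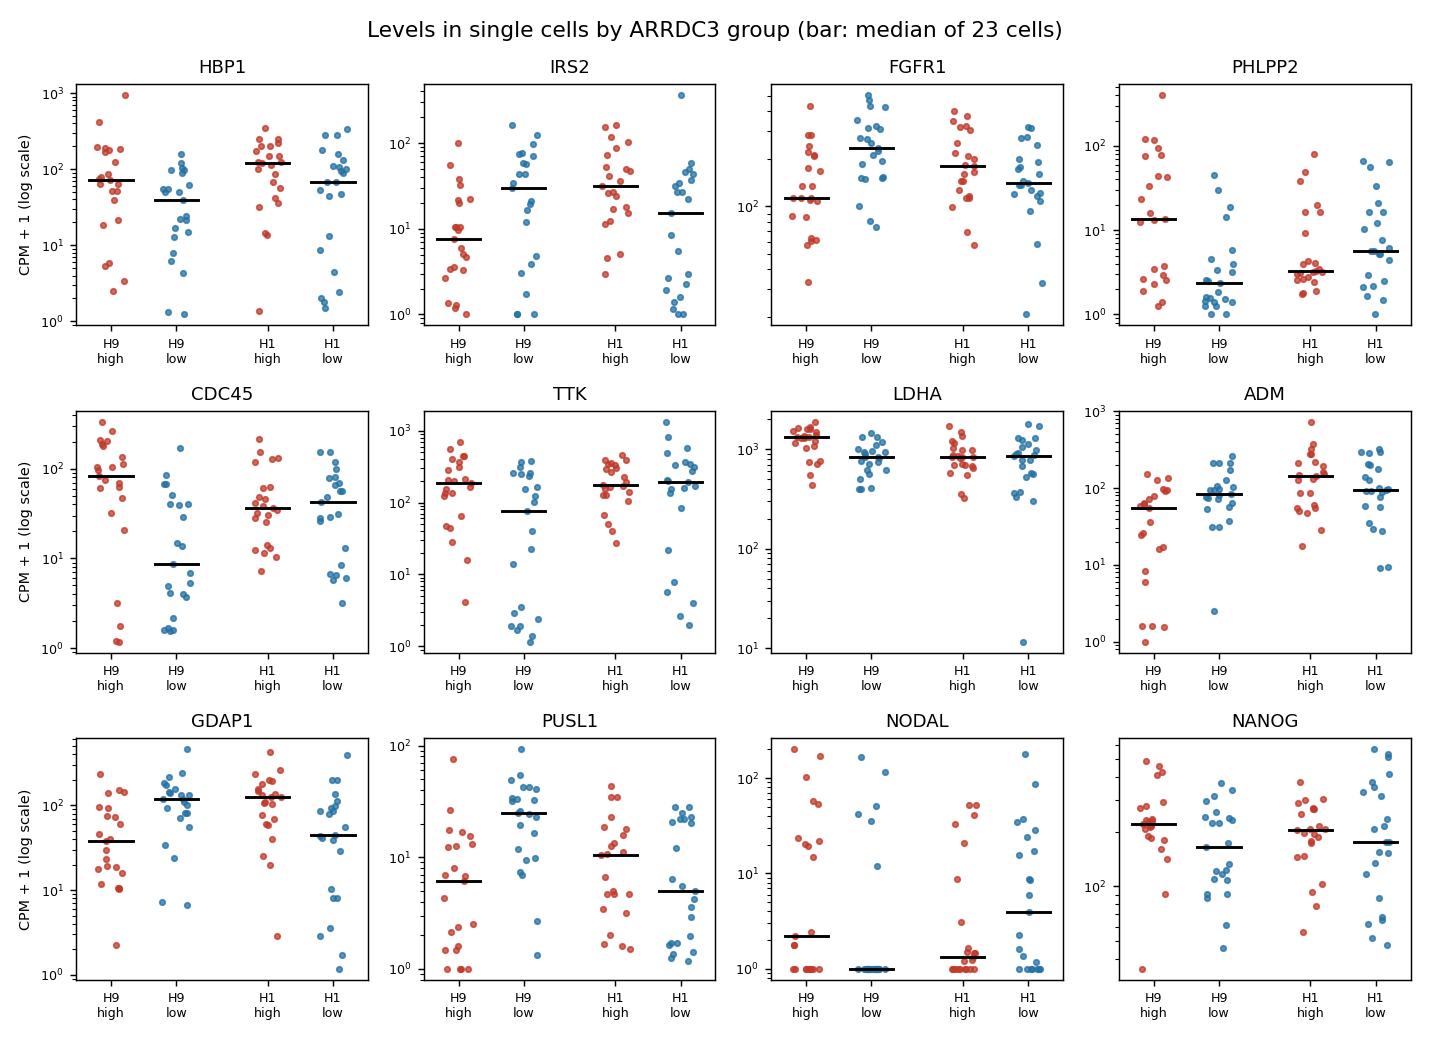
Level of 12 genes (CPM + 1, log axis) in each of 23 ARRDC3-high (red) and 23 ARRDC3-low (blue) cells of H9 and H1, with the median as a bar. Groups overlap for all 12 genes. LDHA and CDC45 have higher medians and FGFR1, GDAP1 and PUSL1 lower medians in ARRDC3-high H9 cells, and none of these 5 is displaced the same way by as much in H1.

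Cell cycle genes were close to even as lists. The 52 G1/S genes had a median log2 ratio of 0.07 with 1 member 2-fold higher, and the 60 G2/M genes a median of 0.10 with 1 member 2-fold higher. CDC45, a subunit of the helicase that opens DNA for replication, was the G1/S member. It ranged from 0.186 to 331 CPM in high cells (median 81.7) and from 0.541 to 167 CPM in low cells (median 7.65), with high cells above low cells in 76.6% of pairs and a log2 ratio of 1.88. Its H1 ratio was 0.14. RRM1, a subunit of the enzyme that makes deoxynucleotides, was on the other side at -0.56.

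Of the 60 G2/M genes 45 were above 0, most by little. GAS2L3, the one past 2-fold, was read in only 11 high and 9 low cells. TTK, a spindle checkpoint kinase, had medians of 184 CPM in high and 76.4 CPM in low cells and a log2 ratio of 0.92, and KIF4A and HMMR, both spindle proteins, stood at 0.69 and 0.62. In H1 these 3 genes had ratios of -0.34, -0.28 and -0.28, and that of TTK ran from -0.77 to 0.06 over the alternative settings.

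Among cyclins, kinases and their inhibitors 0 of 20 were 2-fold higher and 2 were 2-fold lower. CCND3, a G1 cyclin, stood at -1.60 (-0.95 without look-alike cells) and CDKN1C, an inhibitor of such kinases, at -1.26, both at means below 20 CPM. Replication-dependent histone genes, whose poly-A RNA is scarce, had 4 measured members. HIST1H2BK stood at -1.89 and HIST1H4C at -0.22 (-0.23 to 0.18).

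Stress lists lay near even as well. The 11 p53 targets had 0 members 2-fold apart and a median of 0.03. PMAIP1, a cell death gene abundant in these cells, had medians of 519 and 389 CPM. Hypoxia genes had 0 of 16 members 2-fold apart and a median of -0.24. ADM, a peptide hormone made under hypoxia, was the most displaced of them at -0.97, with a median of 53.9 CPM in high cells (0 to 150) and 83.4 CPM in low cells (1.53 to 258.9). In H1 ADM stood at 0.45.

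Single members of the stress lists passed the 2-fold limit, mostly at low levels. Among amino acid response genes TRIB3 was lower, at -1.27, and VLDLR was lower at -4.70, the latter read in 6 high and 10 low cells. Among unfolded protein genes the sensor kinase EIF2AK3 (PERK) stood at -2.35 and CRELD2 at 1.18, among heat shock genes the cochaperone BAG3 stood at 2.16, and among autophagy genes the initiating kinase ULK1 stood at 1.19. ULK1 was past 2-fold in only some settings (0.69 to 1.23), and EIF2AK3 stood at -1.42 in H1 (-2.40 to -0.95 over the alternative settings). The medians of these 4 lists were -0.08, -0.04, 0.00 and -0.09.

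NFE2L2, the transcription factor of the oxidative stress response, was 2-fold higher at 1.70 and was read in 19 high and 21 low cells. Its levels ran from 0 to 214 CPM in high cells (median 38.1) and from 0 to 69.05 CPM in low cells (median 2.01). The oxidative stress list, which holds NFE2L2 itself and KEAP1 beside target genes, had a median of -0.07 over 20 members. Of these SRXN1 stood at -1.03 (-0.83 with counts summed over cells). The H1 ratio of NFE2L2 was -0.40.

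Over all lists 521 genes were measured, of which 12 were at least 2-fold higher and 14 at least 2-fold lower. That is 4.99%, against 9.54% of all measured genes, and the list genes include many that are read in every cell. Of 29 lists with at least 3 measured members 25 had a median within 0.25 of 0 on the log2 scale, and the median of 12 of the 29 changed sign under at least 1 alternative setting.

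**Figure D4:**
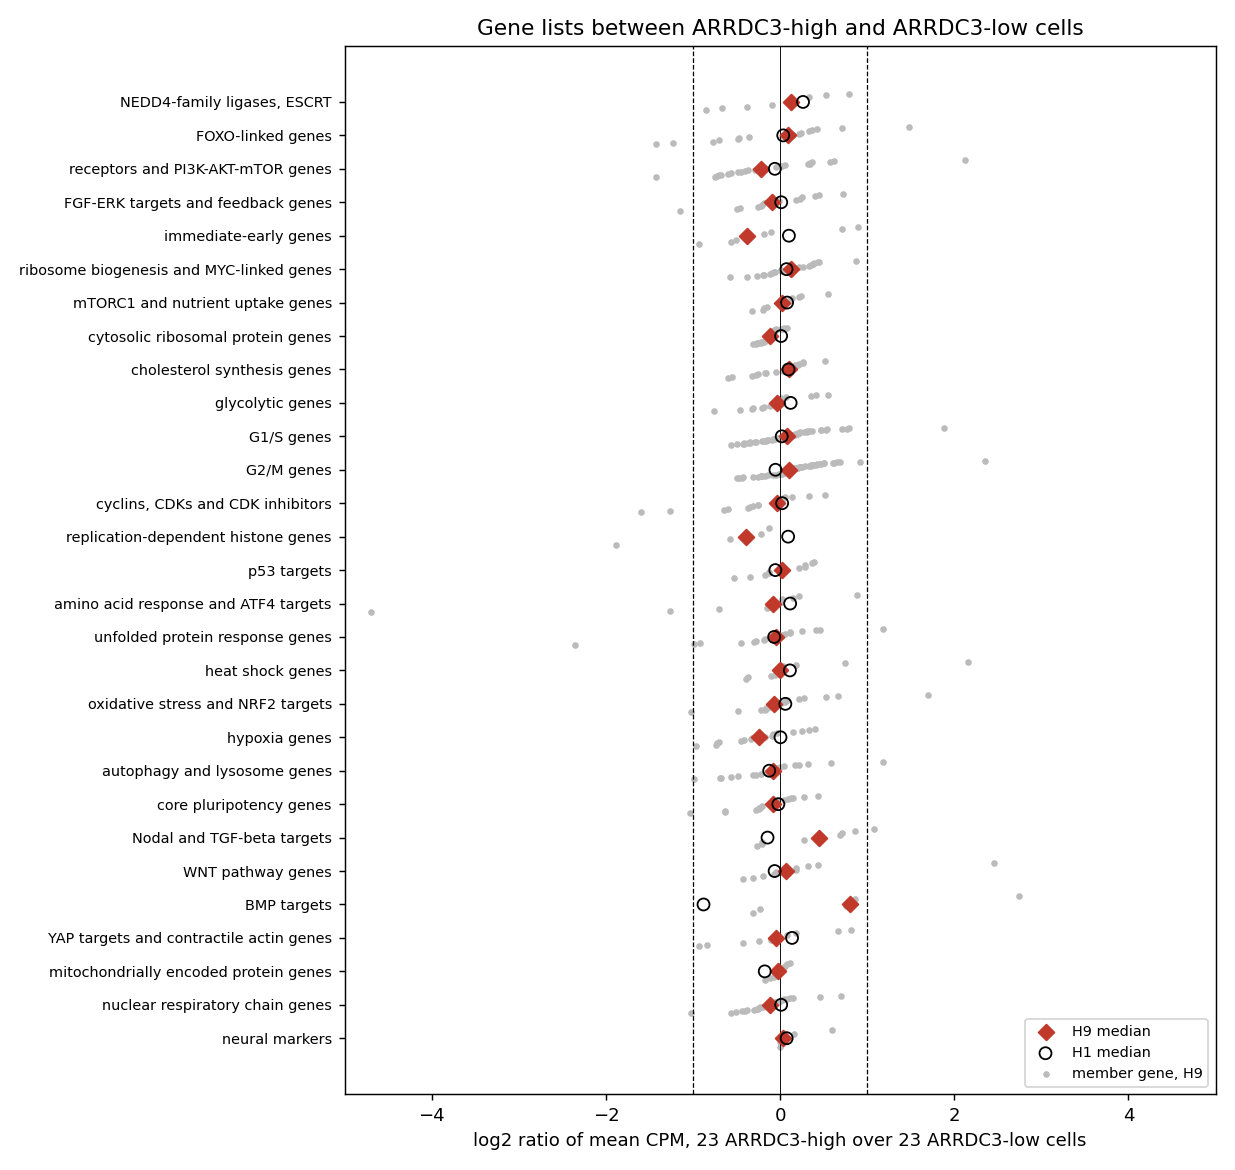
Log2 ratio of mean CPM in ARRDC3-high over ARRDC3-low cells for 29 gene lists, with H9 member genes as grey points, the H9 median as a red diamond and the H1 median as an open circle. Dashed lines mark 2-fold. H9 medians run from -0.40 (histone genes) to 0.81 (BMP targets), and the BMP median is on the other side in H1 at -0.88.

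Both groups expressed the stem cell genes at like levels. The sum of 12 stem cell genes, all read in both groups, had a median of 6690 CPM in high cells (4475 to 8279) and of 6662 CPM in low cells (4786 to 9077). POU5F1, NANOG and SOX2 had log2 ratios of -0.22, 0.43 and -0.08, and the 20 core pluripotency genes a median of -0.08. Of these 20 genes 0 were 2-fold higher and 1 was 2-fold lower.

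The 9 mesendoderm and endoderm markers and the 6 trophoblast and amnion markers were unread in most cells, while some neural and fibroblast markers were read. The summed level of 9 mesendoderm and endoderm markers had a median of 0 in both groups, with at most 20.2 CPM in a high and 63 CPM in a low cell, and T, EOMES, GSC, SOX17, GATA4 and GATA6 were at 0 in both. The 6 trophoblast and amnion markers had a median of 0 and at most 20.8 and 2.19 CPM, with CDX2, GATA2 and HAND1 at 0 in both. Neural markers summed to medians of 105 and 107 CPM and fibroblast markers to 204 and 204 CPM, and COL3A1 was at 0. In a wider amnion list of 13 genes only 2 reached 10 CPM in a group, and both did so in the low group alone. Both were past 2-fold lower in high cells, a direction set by how they were admitted. GABRP, at -5.05, was read in 3 high and 6 low cells. ISL1, at -3.34, was read in 2 high cells and 1 low cell, and stood at 5.17 without the cells of unusual share.

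Targets of Nodal and BMP had medians above 0 in H9 and below 0 in H1, a difference between the lines that was not tested. The 2 lists are not separate, as both hold SMAD7, at 0.86 in H9 and between -0.89 and -0.63 over the settings in H1. Nodal and TGF-beta targets had 7 of 10 members above 0 and a median of 0.45, between 0.33 and 0.50 over the alternative settings. LEFTY1, a secreted Nodal inhibitor, was 2-fold higher at 1.08 and was read in 16 high and 10 low cells. It stood at 0.96 with median-of-ratios factors and at 2.09 without each group's highest cell. NODAL had a count in 14 high and 6 low cells, and its highest levels were 201 and 165 CPM. FOXH1, the DNA-binding partner of SMAD2, had medians of 16.7 and 10.4 CPM and a log2 ratio of 0.69. In H1 the list median was -0.14, with NODAL at -1.09 (-0.56 without the cells of unusual share) and FOXH1 at -0.88.

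BMP targets had a median of 0.81 over 6 members, between 0.29 and 0.88 over the settings, the lowest with cells ranked at 96 per lane. ID1, a direct BMP target, had medians of 9.44 and 3.51 CPM and a log2 ratio of 0.85, while ID3 stood at -0.31. ID4 stood at 2.74, with 1 high cell at 320 CPM. The receptor BMPR1A was lower in the high cells (log2 ratio -1.54), with medians of 5.42 and 30.96 CPM. Among WNT genes the feedback gene AXIN2 stood at 2.45 and was read in 15 high and 12 low cells, and the list median was 0.06.

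Respiratory chain genes of the nucleus had a median of -0.11 over 30 members. NDUFV1, a core subunit of complex I, was the one 2-fold lower, at -1.02 (-1.10 to -0.92 over the alternative settings), with medians of 30.1 and 74.5 CPM. SDHB of complex II and COX5A of complex IV stood at -0.56 and -0.50. The 13 mitochondrially encoded genes had a median of -0.02.

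Genes that most often separated the groups were named by 1 rule. Among genes at least 2-fold apart at both sequencing depths, with a mean of 20 CPM or more and reads in at least 12 cells of the higher group, 201 were higher and 159 lower in the high cells, and the 14 each way with the most extreme share of pairs were taken. The rule used the ratios, so their values describe and do not test.

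Of the 14 genes higher in ARRDC3-high cells, 4 with roles in DNA replication or repair are given first, a grouping made after their values were seen. C1orf112, a recombination factor that works with FIGNL1, came first, with 81.7% of pairs. It ranged from 0 to 257.1 CPM in high cells (median 88.1) and from 0 to 131 CPM in low cells (median 22.9), a log2 ratio of 1.49. FAN1, a nuclease of crosslink repair, had medians of 39.9 and 0.877 CPM and a ratio of 2.45. FAM175A (Abraxas), which holds BRCA1 at breaks, had medians of 14.8 and 0.432 CPM and a ratio of 2.44. CDC45 belongs here too. No enrichment of repair genes was tested.

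Others act on RNA, protein and signalling. CWC22, a splicing factor, was read in all 46 cells, with medians of 162 and 49.8 CPM and a log2 ratio of 1.31. SPOP, a substrate adaptor of the ligase CUL3, was also read in all 46, with medians of 40.01 and 13.3 CPM. PHLPP2, a phosphatase that removes an activating phosphate from AKT, had a ratio of 3.09, with medians of 12.5 and 1.37 CPM and a highest high cell of 405 CPM. PELO, a ribosome rescue factor whose gene lies inside an intron of ITGA1, METTL13, which methylates the elongation factor eEF1A, and NMRAL1, an NADPH sensor, had ratios of 1.24, 1.13 and 1.18. HEATR6, PARP6, ZNF85 and C2orf44 made up the 14, at 2.27, 2.44, 1.40 and 1.81.

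PUSL1, a pseudouridine synthase by sequence, came first among the 14 lower genes, with the high cell above the low cell in 18.5% of pairs. It ranged from 0 to 75.5 CPM in high cells (median 5.10) and from 0.330 to 92.4 CPM in low cells (median 24.1), a log2 ratio of -1.52. CAPN7, a protease that binds ESCRT proteins, had medians of 0.708 and 6.57 CPM and a ratio of -3.07.

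The rest of the lower genes had varied roles. GDAP1, a protein of the mitochondrial outer membrane, was the most abundant, with medians of 37.4 and 117 CPM and a ratio of -1.09. ISY1, a splicing factor, and TTYH3, a membrane protein of the tweety family, were read in all 46 cells and stood at -1.08 and -1.12. PRNP, the prion protein, stood at -2.26, RAP1A, a small GTPase, at -1.99, and NANS, which makes sialic acid, at -1.23. PRDM10, RBM33 and ZNF592 stood between -1.91 and -1.90. TRAFD1, which restrains innate immune signalling, had medians of 1.35 CPM in high and 21.1 CPM in low cells, and BMPR1A was given above.

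Without the cells of unusual share, 12 of the 14 higher and 13 of the 14 lower genes still passed 2-fold. Without the look-alike cells 14 and 13 did, and none of the 28 changed sign in any of the alternative settings. The ratios of 6 of them fell short of 2-fold under at least 1 setting, at the least 0.97 for METTL13, 0.88 for PELO, 0.69 for SPOP, -0.95 for ISY1, -0.92 for TTYH3 and -0.91 for GDAP1.

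The 45 cells between the groups were not used to choose these genes. Their mean lay between those of the high and low cells for 12 of the 14 higher genes and 13 of the 14 lower genes. For CDC45 the 3 means were 102, 53.3 and 27.8 CPM from high to low, and for CAPN7 2.52, 11.9 and 21.1 CPM. The exceptions were METTL13 and C2orf44, highest in the cells between at 59.3 and 48.4 CPM, and PRNP, also highest there at 48.0 CPM. Genes picked for distant ends have a middle that tends to fall between, so the count is a description. HBP1 had means of 132, 74.8 and 47.3 CPM and LDHA of 1236, 1040 and 841 CPM. For IRS2, FGFR1, TTK, ADM and ID1 the mean of the cells between also lay between those of the ends. For NODAL and NANOG it did not, with means of 29.5, 13.97 and 18.1 CPM and of 243, 247 and 180 CPM from high to low.

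Over all 91 H9 cells the genes most like ARRDC3 were weakly so. The highest Spearman correlation over cells was 0.40, for NUDCD1, followed by LDHA (0.39), C1orf112 (0.38), PELO (0.38) and CDC45 (0.36), and the others of the top 10 were PRDX3, FAN1, C3orf58, NMRAL1 and ZNF85. Among the lowest 5 were FAM169A and FGFR1, at -0.38 and -0.37, and ISY1 and RTF1. Of 6565 genes with a mean of 20 CPM or more 41 were past 0.3 in either direction. These cells share a label code and a set of lanes. Over 92 H1 cells the correlations of NUDCD1, LDHA, C1orf112 and CDC45 were 0.04, -0.06, -0.09 and -0.01, and that of FGFR1 was 0.17.

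The same split of H1 cells gave a similar share of 2-fold differences, mostly in other genes. In H1 347 of 8756 genes (3.96%) were at least 2-fold higher and 360 (4.11%) at least 2-fold lower in the high cells, 8.07% in all. Over the 8281 genes measured in both lines the Spearman correlation of the log2 ratios across genes was -0.01, where genes are not independent replicates. Among these, 43 were 2-fold higher in both, which is 13.3% of the H9 genes and 16.7% of the H1 genes. Lower in both were 29, or 10.7% of the H9 and 10.9% of the H1 genes. Opposite calls numbered 29 and 25.

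Of the 14 higher genes 13 reached 10 CPM in H1, all but PARP6, and of these 0 were 2-fold higher there and 9 had the same sign. Of the 14 lower genes 7 had the same sign in H1, RAP1A was also 2-fold lower (-1.68), and 2 were 2-fold higher, among them CAPN7 at 1.84, which was -0.13 without the cells of unusual share and -0.083 without look-alike cells. In H1 the gene that most often separated the groups was ADNP, a chromatin factor, at 85.4% of pairs. The line, the label code and the passage range differ together and cannot be told apart.

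**Figure D5:**
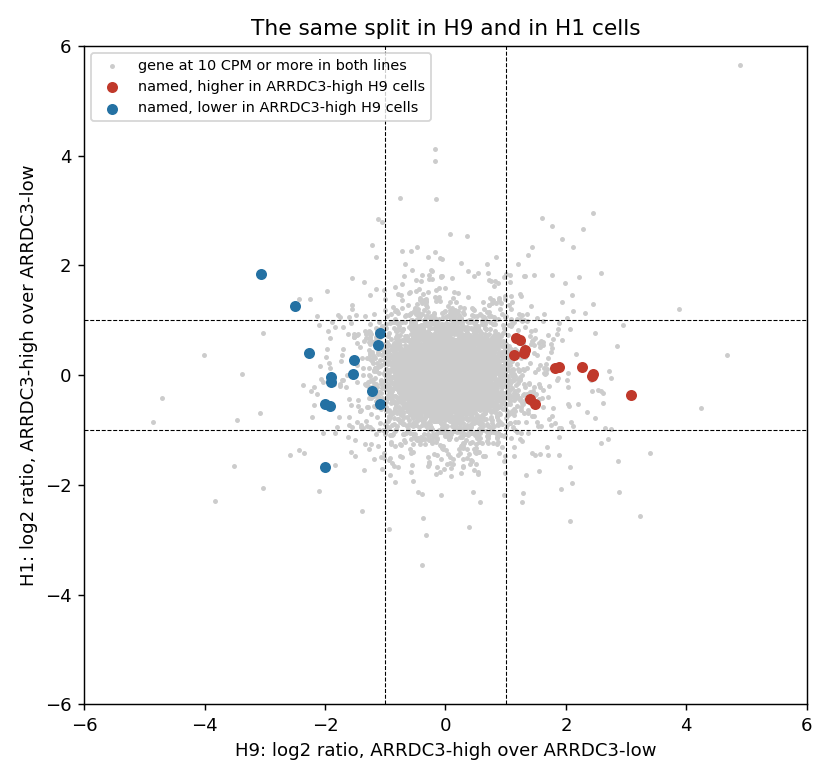
Log2 ratio of mean CPM in ARRDC3-high over ARRDC3-low cells in H9 (x axis) and in H1 (y axis) for 8281 genes measured in both, with the named H9 genes in red (higher) and blue (lower) and dashed lines at 2-fold. The cloud has no slope (Spearman -0.01), and 1 of the named genes, RAP1A, passes 2-fold in the same direction in both lines.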

How the data were processed

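Expression was measured in 91 H9 cells and 92 H1 cells, each sequenced at 24 and at 96 libraries per lane, and in 48 bulk H1 libraries. Per the submitters' processing notes the tools were CASAVA 1.8.2, Bowtie 0.12.8 and RSEM 1.2.3 on hg19, and the authors deposited expected counts per gene, as RSEM estimates them. The annotation and the use of strand are not given in the sources used here. Human genes numbered 19097 and spike-ins 92 in the cell tables, and all sample columns were used.

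Counts were divided by each cell's human total to give CPM, without spike-ins, and were not rounded except for detection (1 count) and Poisson sums. The 23 highest and 23 lowest cells by ARRDC3 were compared by the mean of per-cell CPM, as a log2 ratio, over genes whose mean reached 10 CPM in a group, with 2-fold as the limit for a call. A group with no counts was set to a floor of 3 counts over the group (1 gene in H9). Intervals are exact at 95% and cover counting error or the drawing of cells only. Amplified reads without molecular identifiers are not independent. The most like genes were those with the 10 highest and 5 lowest Spearman correlations at a mean of 20 CPM or more, and up to 5 members per list were named by the largest ratios. The members and the 33 lists were chosen with earlier results of these data known. Doublets were not called, and no file marks chip sites that held more than 1 cell. The computation was tested on simulated data. Promoter sequences are from RefSeq on GRCh38.p14, used for sequence only. The tools were scipy 1.17.1, pandas 2.3.3, numpy 2.4.6 and matplotlib 3.10.9 under Python 3.11.15, and edgeR 4.0.16 in R 4.3.3 gave TMM factors for an alternative. Some genes that met the naming rules are not reported here.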

Additional observations from a re-analysis of the deposited data

How the results depend on the processing

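The H9 counts of 458 higher and 395 lower genes stayed within 1.5 times under all alternatives but a minimum of 1 CPM, which gave 1306 and 1287 genes, as it admits weaker genes. In H1 that minimum gave 1221 higher and 1139 lower genes. The H1 count of 360 lower genes was 703 with TMM factors, 768 with median-of-ratios factors and 201 with each gene's highest cell per group left out, with 32.3%, 29.5% and 64.4% of called genes higher against 49.1%. Both scalings moved the median log2 ratio of all H1 genes, to -0.15 and -0.18, and the cause was not tested. Of the single gene and list values 5286 stayed in place, 27 moved and 4 reversed. ISL1 in H9, at -3.34, was 5.17 without the cells whose spike-in or mitochondrial share was unusual. CAPN7 in H1 was -0.13 without those cells and -0.083 without look-alike cells. WIPI1 in H1 was -0.13 with cells ranked at 96 per lane. Of the named genes 12 to 14 of the 14 higher and 11 to 14 of the 14 lower passed 2-fold under each alternative. The rank correlation between the lines lay between -0.02 and 0.01. Leaving out the cell highest in ARRDC3, leaving out look-alike cells and grouping genes by cells with reads were chosen after seeing the data. No paired analysis was possible because no result comes from a test, and cell numbers in H9 and H1 name different cells. Depth and the number of cells both limit genes near 10 CPM, and a gene read in few cells takes its ratio from those cells.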
